A study of Mus musculus with 39 samples.

Results

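The genes described here are the ligands and receptors of the tumour necrosis factor (TNF) superfamily, measured by RNA sequencing in 39 mouse mammary tumours. They were chosen by gene symbol from a list of the family, and 42 of the 53715 genes in the count table matched, 18 ligands and 24 receptors. Every tumour was an adenocarcinoma of no special type from an adult female mouse that was Blg-Cre; Brca1flox/flox; p53 +/-, so all groups share the Cre transgene, the floxed Brca1 alleles and 1 functional p53 allele, and the mice differed in Lyn, which encodes a Src family kinase. By genotype there were 13 Lynflox/flox, 14 Lynflox/wt and 12 Lynwt/wt tumours. The study also divided the tumours by principal component analysis (PCA) of their expression into 10 tumours of PCA group 3/4 and 29 of PCA group 1/2, and labelled the 13 tumours with the most Lyn RNA Lyn-high and the 13 with the least Lyn-low, which left 13 without a Lyn label. Both of these groupings came from the same libraries, so a difference in a TNF superfamily gene between them describes the groups and is not independent of how they were made. They also overlap: 6 of the 10 PCA group 3/4 tumours were Lyn-high and none was Lyn-low, while PCA group 1/2 held 7 Lyn-high, 13 Lyn-low and 9 unlabelled tumours.

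Some limits of the model bear on everything below. The Cre is driven by the β-lactoglobulin promoter, which is active in mammary epithelium, so leukocytes and stroma in a Lynflox/flox tumour keep their Lyn alleles. The paper reports that recombination was incomplete in tumour cells too, with the floxed allele still whole in cultures from some tumours. Recombination removes exon 4, while Lyn was counted here over the whole gene. Each library was made from a piece of whole tumour. In such bulk samples, fewer cells of a type and less RNA per cell cannot be told apart. The tumours came from 28 mice, and 9 of these gave more than 1 tumour (20 tumours in all), so tumours of 1 mouse are not separate animals. In PCA group 3/4, Lynflox/wt 08, Lynflox/wt 09 and Lynflox/wt 19 came from the same mouse. The database IDs begin with 20 for 18 tumours and with 21 for the other 21. PCA group 3/4 took 7 of its 10 tumours and Lyn-high 9 of its 13 from prefix 20, against 11 of 29 in PCA group 1/2 and 4 of 13 in Lyn-low. Total counts were 50490044 to 83122719 per tumour (median 62409143). Lyn stood at 10.2 to 90.8 CPM (counts scaled to the size of the library) in Lynflox/flox tumours, 25.4 to 82.1 in Lynflox/wt tumours and 27.4 to 181 in Lynwt/wt tumours, and the genotypes overlapped (log2 fold change −0.76 for Lynflox/flox against Lynwt/wt, edgeR adjusted p = 0.285). Markers of luminal epithelium summed to at least 1690 CPM in each tumour.

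TNF superfamily ligands are mostly trimeric proteins on the cell surface that can be shed, and they act on receptors of neighbouring cells. A set of the receptors, such as Fas, carry a death domain and can start apoptosis, whereas others bind TRAF adaptors and switch on NF-kB by a canonical or a non-canonical route. In lymphoid tissue the family drives lymph node formation, T cell costimulation and B cell survival. In the mammary gland it is best known for RANKL (Tnfsf11), its receptor RANK (Tnfrsf11a) and the decoy receptor osteoprotegerin (Tnfrsf11b), which govern growth of the epithelium under progesterone.

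Levels were compared between genes as CPM per kb of exon, since long genes collect more counts. Receptors led the order. Tnfrsf12a, the receptor of TWEAK, had a median over the 39 tumours of 74.2 CPM per kb, followed by Tnfrsf1a, the death domain receptor of TNF, at 70.4 and Ltbr, the lymphotoxin β receptor, at 43.1 CPM per kb. The next receptors were Tnfrsf21 (death receptor 6) at 23.1, Tnfrsf11b at 19.2 and Tnfrsf1b, the TNF receptor without a death domain, at 17.7 CPM per kb. Neighbours in this order overlapped over the tumours, with Tnfrsf12a spanning 14.6 to 352 and Tnfrsf1a 28.4 to 205 CPM per kb. The highest ligands stood far lower: Tnfsf12, which encodes TWEAK, had a median of 4.63, Tnf of 4.32 and Tnfsf10, which encodes TRAIL, of 3.01 CPM per kb. At the low end were Cd40lg, Cd70 and Tnfrsf17, with no counts in 15, 26 and 23 tumours and highest levels of 1.44, 0.279 and 0.321 CPM. These 3 genes did not pass the low-count filter in any comparison of the full groups, and 31 of the 42 had a count in all tumours. The exons of Tnfsf12 and Tnfsf13 overlap the read-through gene Tnfsfm13, and Cd27 overlaps the miRNA gene Mir8113 on the same strand, so counts of these 3 are uncertain. Single tumours often held the highest value of several genes: Lynflox/wt 25 for 7, Lynwt/wt 41 for 5, and Lynflox/flox 54, Lynflox/wt 07 and Lynflox/wt 08 for 4 each.

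**Figure D1:**
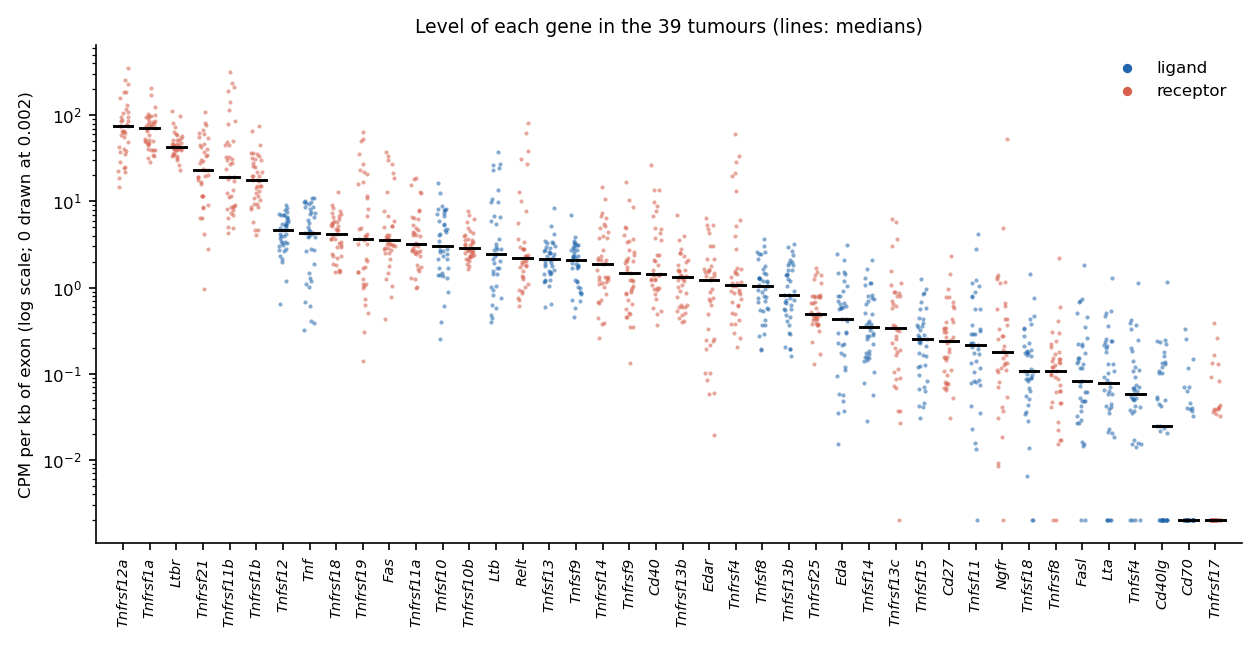
Level of each of the 42 TNF superfamily genes in CPM per kb of exon on a log scale, ordered by median; points are the 39 tumours (blue ligands, red receptors), black lines are medians, and 0 is drawn at 0.002. The first 6 places are receptors, with medians between 17.7 and 74.2 CPM per kb, and the highest ligand, Tnfsf12, has a median of 4.63.

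PCA group 3/4 was compared with PCA group 1/2 to ask how the family differed between the transcriptional classes of tumour. A gene was called when its adjusted p in edgeR's quasi-likelihood test was under 0.05 and its fold change was at least 2 or at most 0.5. Of the 42 genes 39 could be tested, and 14 were called higher and 1 lower in PCA group 3/4. The called genes comprised 5 of 16 tested ligands, all higher, and 10 of 23 tested receptors, 9 of them higher. Among all 19453 genes tested, 7.69% were called higher and 6.43% lower. The median log2 fold change of the 39 was 1.00 beside −0.05 over all genes, and 27 of the 39 were positive, beside 45.7% of all genes. The groups overlapped for every one of the called genes, so none of them separated the classes completely.

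**Figure D2:**
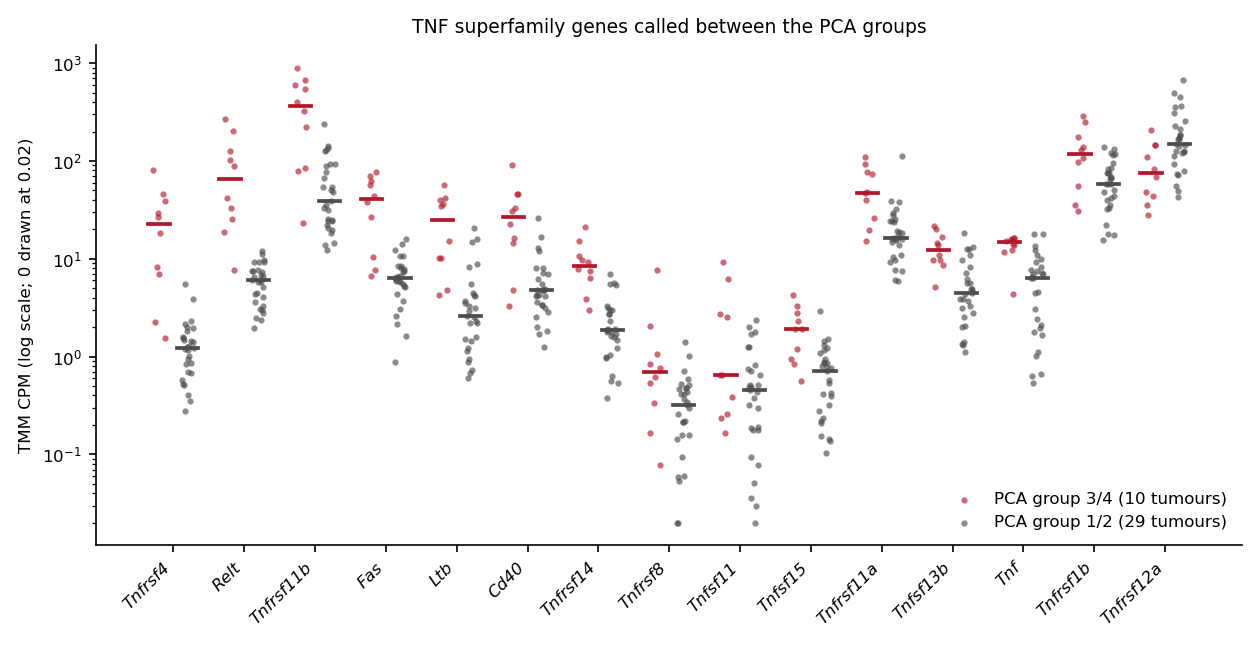
Normalised CPM (log axis, 0 drawn at 0.02) of the 15 TNF superfamily genes called between the PCA groups, ordered by fold change; points are the 10 PCA group 3/4 tumours (red, left of each pair) and the 29 PCA group 1/2 tumours (grey), and lines are medians. Relt and Tnfrsf4 show the widest gaps, Tnf has no PCA group 3/4 tumour above the highest PCA group 1/2 tumour, and Tnfrsf12a runs the other way.

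Among ligands of the TNF and lymphotoxin branch, Ltb, whose product anchors lymphotoxin to the membrane and acts in lymph node formation, stood at 4.28 to 57.2 CPM in PCA group 3/4 (median 24.9), against 0.597 to 20.4 CPM in PCA group 1/2 (median 2.58). All 10 PCA group 3/4 tumours lay above the PCA group 1/2 median and 5 above its highest tumour. The log2 fold change was 2.55 ± 0.45 (SE, adjusted p = 3.98e-05). Tnf, which encodes the founding cytokine of the family, had 4.38 to 16.4 CPM in PCA group 3/4 (median 14.7), against 0.535 to 17.9 CPM in PCA group 1/2 (median 6.42). Its rise of 1.12 ± 0.40 on the log2 scale (adjusted p = 0.035) thus came from a shift of the middle of the group and not from high extremes, and Lynflox/wt 09 alone of the 10 lay below the PCA group 1/2 median. Lta, the soluble lymphotoxin, ranged from 0.0623 to 1.81 CPM in PCA group 3/4, against 0 to 0.694 CPM in PCA group 1/2, and did not pass the test (log2 fold change 1.49, adjusted p = 0.0661), nor did Tnfsf14, which encodes LIGHT (0.42, adjusted p = 0.558). Ltb, Tnf and Lta lie side by side on chromosome 17 of build GRCm38, at positions 35194439-35196320, 35199381-35202007 and 35203165-35205351, with gaps of 3060 and 1157 bases.

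The receptors of this branch went in different directions. Tnfrsf14, the receptor of LIGHT and a partner of the inhibitory receptor BTLA, was at 2.97 to 21.1 CPM in PCA group 3/4 (median 8.47), against 0.377 to 6.98 CPM in PCA group 1/2 (median 1.86), and 7 of the 10 tumours exceeded the highest of PCA group 1/2 (log2 fold change 2.02 ± 0.33, adjusted p = 1.19e-05). Tnfrsf1b was at 30.8 to 287 CPM in PCA group 3/4 (median 118), against 15.7 to 138 CPM in PCA group 1/2 (median 58.2). With a log2 fold change of 1.00 ± 0.30 (adjusted p = 0.0126) it sat at the fold threshold itself, and 7 of the 10 tumours were above the PCA group 1/2 median. Tnfrsf1a, which binds the same ligand, was at 73.6 to 203 CPM in PCA group 3/4 (median 102), against 87.3 to 531 CPM in PCA group 1/2 (median 194). This difference of −0.93 ± 0.21 on the log2 scale passed the adjusted p (0.00107) but not the fold threshold, and 9 of the 10 PCA group 3/4 tumours lay below the PCA group 1/2 median. Ltbr differed little, with 62.2 to 122 CPM in PCA group 3/4 (median 96) and 54.2 to 266 CPM in PCA group 1/2 (median 109; log2 fold change −0.34 ± 0.17, adjusted p = 0.166).

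The death branch as listed here held Fas, Fasl, Tnfsf10, Tnfrsf10b and Tnfrsf21, and only Fas was called. It does not cover all death domain receptors, since Tnfrsf1a was listed with the TNF and lymphotoxin receptors. Fas stood at 6.7 to 77.8 CPM in PCA group 3/4 (median 41.1), against 0.883 to 16.1 CPM in PCA group 1/2 (median 6.4), a log2 fold change of 2.57 ± 0.31 (adjusted p = 3.67e-08). All 10 tumours were above the PCA group 1/2 median, and the 3 that did not exceed its highest tumour were Lynflox/wt 09, Lynwt/wt 21 and Lynflox/wt 19. Its ligand Fasl was scarce, with a highest level of 3.56 CPM in any tumour, and did not pass the test (1.19, adjusted p = 0.169). Tnfsf10 (−0.41, adjusted p = 0.55), its receptor Tnfrsf10b (0.33, adjusted p = 0.231) and Tnfrsf21 (0.36, adjusted p = 0.611) were not called either.

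The costimulatory branch held the gene with the widest difference of the family. Tnfrsf4, which encodes OX40, a receptor of activated and regulatory T cells, was at 1.56 to 81.7 CPM in PCA group 3/4 (median 22.6), against 0.28 to 5.48 CPM in PCA group 1/2 (median 1.23). All 10 tumours were above the PCA group 1/2 median and 8 above its highest, the exceptions being Lynflox/wt 09 at 2.27 and Lynflox/wt 19 at 1.56 CPM (log2 fold change 4.20 ± 0.39, adjusted p = 9.97e-11). Its genomic neighbour Tnfrsf18, which encodes the related receptor GITR, starts 9551 bases beyond its end on chromosome 4 and did not differ beyond its error (−0.08 ± 0.29, adjusted p = 0.882). Cd40, the receptor through which T cells license B cells and dendritic cells, was at 3.32 to 90.1 CPM in PCA group 3/4 (median 26.6), against 1.24 to 26 CPM in PCA group 1/2 (median 4.75; log2 fold change 2.33 ± 0.36, adjusted p = 6.18e-06). For this gene 5 tumours exceeded the highest of PCA group 1/2.

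The other called costimulatory genes had low counts. Tnfrsf8, which encodes CD30 of activated lymphocytes, was at 0.0771 to 7.69 CPM in PCA group 3/4 (median 0.694), against 0 to 1.41 CPM in PCA group 1/2 (median 0.321; log2 fold change 1.98 ± 0.52, adjusted p = 0.00464). Only 2 tumours exceeded PCA group 1/2, Lynwt/wt 20 at 7.69 and Lynflox/wt 25 at 2.05 CPM. Tnfsf15, a ligand made by endothelial and myeloid cells, was at 0.556 to 4.24 CPM in PCA group 3/4 (median 1.91), against 0.103 to 2.91 CPM in PCA group 1/2 (median 0.712; log2 fold change 1.44 ± 0.38, adjusted p = 0.00441). The remaining members of the branch were not called. Their log2 fold changes were 1.13 for Tnfrsf9, 1.03 for Cd27 and −0.38 for Tnfrsf25 among receptors (adjusted p = 0.0832, 0.108 and 0.405), and 1.00 for Tnfsf4, 0.32 for Tnfsf8, −0.02 for Tnfsf9 and −0.40 for Tnfsf18 among ligands (adjusted p = 0.268, 0.586, 0.969 and 0.694).

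Of the B cell survival genes, Tnfsf13b, which encodes BAFF, was at 5.14 to 21.8 CPM in PCA group 3/4 (median 12.4), against 1.1 to 18.2 CPM in PCA group 1/2 (median 4.51; log2 fold change 1.19 ± 0.33, adjusted p = 0.00705). All 10 tumours lay above the PCA group 1/2 median, and 2 above its highest. Tnfsf13, which encodes APRIL, did not pass the test (0.17, adjusted p = 0.716). Nor did the receptors TACI (Tnfrsf13b, 0.61, adjusted p = 0.214) and BAFF-R (Tnfrsf13c, −1.80, adjusted p = 0.0875).

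The epithelial and tissue branch contained both large increases and the 1 decrease. Relt was listed in this branch, although it is a receptor of lymphoid and haematopoietic tissues, so its change is not one of epithelial genes as such. It was at 7.74 to 266 CPM in PCA group 3/4 (median 65.1), against 1.98 to 12 CPM in PCA group 1/2 (median 6.05). Only Lynflox/wt 09 of the 10 did not exceed the highest PCA group 1/2 tumour, the cleanest separation of any member (log2 fold change 3.92 ± 0.31, adjusted p = 2.61e-12). Tnfrsf11b was at 23.1 to 887 CPM in PCA group 3/4 (median 362), against 12.2 to 239 CPM in PCA group 1/2 (median 38.7), and 6 tumours were above the highest of PCA group 1/2 (log2 fold change 2.66 ± 0.40, adjusted p = 3.65e-06). Lynflox/flox 54 had the highest level of Relt, Tnfrsf11b and Tnfrsf4 alike.

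The receptor and the ligand that osteoprotegerin competes for were also called. Tnfrsf11a was at 15.1 to 109 CPM in PCA group 3/4 (median 47.3), against 5.97 to 112 CPM in PCA group 1/2 (median 16.4), and 9 of the 10 tumours were above the PCA group 1/2 median but none above its highest (log2 fold change 1.35 ± 0.32, adjusted p = 0.00182). Tnfsf11 was at 0.164 to 9.27 CPM in PCA group 3/4 (median 0.654), against 0 to 2.35 CPM in PCA group 1/2 (median 0.456; log2 fold change 1.88 ± 0.58, adjusted p = 0.0156). Its rise rested on 4 tumours: Lynflox/wt 08 at 9.27, Lynwt/wt 20 at 6.24, Lynflox/wt 25 at 2.73 and Lynwt/wt 03 at 2.52 CPM. Histology notes mention lymphoid tissue in the section of Lynflox/wt 08 and Lynwt/wt 20. They also mention it for Lynflox/wt 30 of PCA group 3/4, with Tnfsf11 at 0.655 CPM, and Lynwt/wt 02 of PCA group 1/2, at 1.25 CPM. Tnfrsf12a fell, with 28.2 to 206 CPM in PCA group 3/4 (median 76.2), against 42.4 to 680 CPM in PCA group 1/2 (median 148; log2 fold change −1.11 ± 0.38, adjusted p = 0.0283), and 9 of the 10 tumours lay below the PCA group 1/2 median. Its ligand Tnfsf12 did not pass the test (0.08, adjusted p = 0.873). Tnfrsf19, the Wnt-responsive receptor TROY, had 9.77 to 251 CPM in PCA group 3/4 (median 69.1), against 0.665 to 303 CPM in PCA group 1/2 (median 10.1), and was not called (1.51, adjusted p = 0.084). Eda and its receptor Edar, which pattern hair and glands, and the neurotrophin receptor Ngfr were not called (−0.61, −0.28 and −1.21, adjusted p = 0.511, 0.798 and 0.496).

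Promoter windows of 5 called genes are shown because the downstream NF-kB genes described below moved with them and Ltb is a textbook NF-kB target. The windows are from RefSeq, build GRCm38.p6, and run from 250 bases before to 50 bases after the annotated start, 5′ to 3′ on the gene's strand. Capitals mark a match, on either strand, to the NF-kB consensus (a pattern of 10 bases). The windows are chr17:35194257-35194556 (+) for Ltb, chr4:145315115-145315414 (−) for Tnfrsf8, chr7:100863364-100863663 (−) for Relt, chr4:156013445-156013744 (+) for Tnfrsf4 and chr19:34290409-34290708 (+) for Fas.
Ltb: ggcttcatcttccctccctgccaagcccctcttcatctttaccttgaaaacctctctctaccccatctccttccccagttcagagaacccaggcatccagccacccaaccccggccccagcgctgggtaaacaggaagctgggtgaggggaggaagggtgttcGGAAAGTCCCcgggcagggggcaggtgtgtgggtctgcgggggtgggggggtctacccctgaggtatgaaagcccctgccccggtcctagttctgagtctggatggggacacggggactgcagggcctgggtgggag
Tnfrsf8: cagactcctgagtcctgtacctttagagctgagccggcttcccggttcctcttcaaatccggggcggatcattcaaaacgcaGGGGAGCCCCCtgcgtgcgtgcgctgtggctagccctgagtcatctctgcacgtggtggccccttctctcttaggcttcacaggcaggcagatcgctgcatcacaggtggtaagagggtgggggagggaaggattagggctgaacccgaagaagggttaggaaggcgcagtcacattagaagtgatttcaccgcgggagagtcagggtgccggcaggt
Relt: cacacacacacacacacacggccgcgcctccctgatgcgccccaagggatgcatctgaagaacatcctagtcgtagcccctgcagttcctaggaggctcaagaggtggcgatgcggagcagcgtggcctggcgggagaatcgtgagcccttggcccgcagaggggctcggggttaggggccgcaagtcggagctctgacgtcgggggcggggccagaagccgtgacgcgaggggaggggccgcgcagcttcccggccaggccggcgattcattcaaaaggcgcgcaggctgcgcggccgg
Tnfrsf4: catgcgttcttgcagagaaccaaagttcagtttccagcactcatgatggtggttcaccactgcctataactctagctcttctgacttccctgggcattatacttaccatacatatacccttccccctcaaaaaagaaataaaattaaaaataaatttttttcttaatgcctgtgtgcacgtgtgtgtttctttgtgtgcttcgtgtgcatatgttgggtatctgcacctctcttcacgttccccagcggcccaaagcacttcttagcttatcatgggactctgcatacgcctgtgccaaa
Fas: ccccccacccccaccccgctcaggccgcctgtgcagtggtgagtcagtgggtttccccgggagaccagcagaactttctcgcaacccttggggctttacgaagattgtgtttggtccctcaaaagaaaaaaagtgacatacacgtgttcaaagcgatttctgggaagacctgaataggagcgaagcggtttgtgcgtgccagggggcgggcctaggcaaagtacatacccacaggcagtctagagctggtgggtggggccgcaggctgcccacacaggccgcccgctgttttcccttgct

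In Ltb the match begins 87 bases before the start, and in Tnfrsf8 overlapping matches begin 168 and 167 bases before it. The windows of Relt, Tnfrsf4 and Fas, the genes with the strongest tests, held no match, which says only that these letters are not in these windows. A window was found for 34 of the 42 genes, and 4 of the 34 (11.8%) held a match: Ltb, Tnfrsf8, Tnfrsf9 and Tnfrsf25. In all genes the share was 9.55% (2581 of 27025). Of the genes called higher in PCA group 3/4 that had a window, 2 of 12 (16.7%) held one, and 2 of the other 22 (9.09%). A match is a description of the letters and not of binding.

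Below the receptors, 47 genes of TNF receptor signalling were followed as a list, all of them tested between the PCA groups. Of these 17 were called higher and 2 lower in PCA group 3/4, and their median log2 fold change was 0.47. The shares over all genes in this contrast were 7.69% higher and 6.43% lower. The count was highest for feedback and induced genes, with 9 higher and 1 lower of 12. NF-kB kinases and subunits gave 3 higher of 10, the death complex and its brakes 2 of 12, receptor adaptors and TRAFs 3 higher and 1 lower of 10, and the sheddases that release ligands 0 of 3. The smallest edgeR p-values belonged, in order, to Nfkb2 (log2 fold change 2.14, adjusted p = 9.29e-11), the adhesion molecule Icam1 (3.57, adjusted p = 9.44e-11) and the ubiquitin ligase Birc2 (2.85, adjusted p = 2.27e-10). Next came Tnip1 (2.64, adjusted p = 2.71e-10), Relb (2.38, adjusted p = 3.48e-10) and Nfkbia (2.22, adjusted p = 6.9e-10). Nfkb2 and Relb are the subunits of the non-canonical pathway. Tnip1 and Nfkbia are inhibitors, both themselves induced by NF-kB.

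Markers of several other cell types moved with these genes, in a contrast where 7.69% of all genes were called higher. The 8 macrophage markers summed to 2200 to 8750 CPM in PCA group 3/4 (median 3550), against 394 to 3490 CPM in PCA group 1/2 (median 1270), and 6 were called higher. The T cell markers summed to 10.3 to 162 CPM in PCA group 3/4, against 2.17 to 53.8 CPM in PCA group 1/2, with 3 of 7 called higher, whereas 0 of 6 B cell markers were called (2.57 to 43 CPM in PCA group 3/4, against 1.03 to 82.5 CPM in PCA group 1/2). Markers of dendritic cells (4 of 6) and genes of the lymph node stroma list (3 of 5 tested) were also called higher. In the latter list the called genes were Cr2, Madcam1 and Fcer2a (log2 fold changes 9.84, 7.75 and 3.86). The chemokine Cxcl13 was not called (1.22, edgeR adjusted p = 0.406). Ccl21a went the other way without being called (log2 fold change −2.82, edgeR adjusted p = 0.164). The list was thus higher in part only. A list of thymic and keratinising epithelium had a wider gap, with summed levels of 23.7 to 4560 CPM in PCA group 3/4 (median 1070), against 3.17 to 30.8 CPM in PCA group 1/2 (median 10.9), and 3 of 6 tested genes were called higher. These were Spib, Foxn1 and Aire (log2 fold changes 9.82, 7.77 and 4.21). Lor, Krt10 and Krt1 were not called (0.49, 0.16 and −1.59), so the keratinising part of the list did not rise with them. No gene list was at 0 in all tumours, and the part of these cell types in the TNF superfamily differences was not tested.

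Several calls depended on which tumours were compared. Within prefix 20 alone 8 genes were called higher and within prefix 21 alone 9, against 14 in all tumours. Relt (log2 fold changes 2.75 in prefix 20 and 5.18 in prefix 21), Tnfrsf4 (4.04 and 4.79), Fas (2.07 and 3.18), Cd40 (2.24 and 2.71), Tnfrsf14 (1.5 and 2.73) and Tnfrsf11a (1.5 and 1.84) were called in each prefix. Tnfsf11 was at −0.19 in prefix 21 (adjusted p = 0.929), against 2.18 in prefix 20. Without the 4 tumours whose histology notes mention lymphoid tissue, 10 genes were called higher, 9 of the 14 and Cd40lg, which encodes the ligand of CD40 and passed the low-count filter in that run (2.33, adjusted p = 0.0463). Calls were lost for Tnfsf11 (0.76, adjusted p = 0.496), Tnfrsf8 (1.11, adjusted p = 0.151), Tnf (1.00, adjusted p = 0.15), Tnfrsf1b (0.93, adjusted p = 0.0534) and Tnfsf13b (1.09, adjusted p = 0.0513). With the mouse as a fixed block, which rests on the 4 mice that had tumours in both PCA groups, 4 genes were called: Relt (4.12, adjusted p = 0.0387), Fas (2.94, adjusted p = 0.0171), Tnfrsf11a (2.15, adjusted p = 0.0387) and Tnfrsf19 (3.30, adjusted p = 0.0252). Tnfrsf4 was at 4.08 in that fit (adjusted p = 0.0743). The decrease of Tnfrsf12a was lost when Lynflox/wt 25, Lynflox/wt 49 or Lynflox/flox 54 was left out. A second gene was called lower without Lynwt/wt 03, and Tnfrsf13c was called lower under DESeq2 (−1.79, adjusted p = 0.025) and with the prefix as a covariate (−2.16, adjusted p = 0.0415).

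Lyn-high tumours were next compared with Lyn-low tumours, a grouping by the amount of Lyn RNA itself. Of the 42 genes 36 were tested, and 11 were called higher and 0 lower in Lyn-high tumours, 3 of 13 ligands and 8 of 23 receptors. Among all 17709 genes tested, 5.49% were called higher and 0.508% lower. The median log2 fold change of the 36 was 1.10 beside 0.03 over all genes, and 28 of the 36 were positive, beside 52.7% of all genes. At an unadjusted p under 0.05 the counts were 20 higher and 0 lower, and DESeq2 also called 0 lower. Of all genes, 20.5% passed that p in either direction. Lta, Tnfsf4, Fasl, Cd40lg, Cd70 and Tnfrsf17 did not pass the low-count filter.

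**Figure D3:**
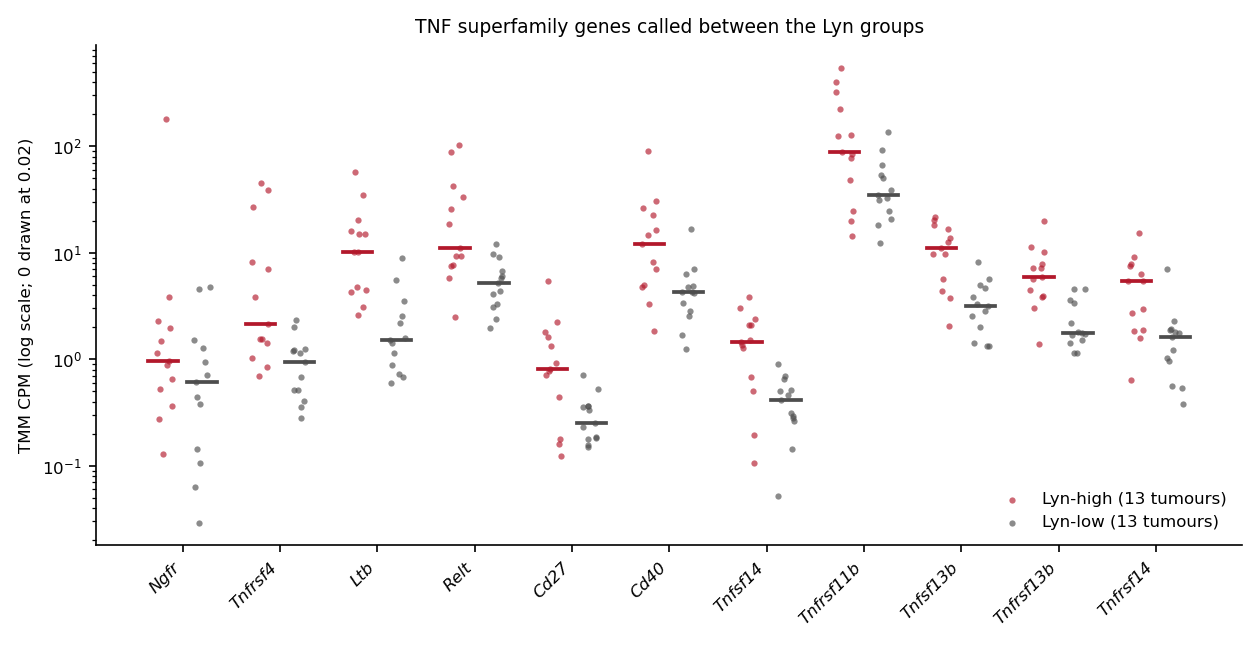
Normalised CPM (log axis, 0 drawn at 0.02) of the 11 TNF superfamily genes called between the Lyn groups, ordered by fold change; points are the 13 Lyn-high tumours (red, left of each pair) and the 13 Lyn-low tumours (grey), and lines are medians. A single Lyn-high tumour at 180 CPM stands apart for Ngfr, whereas 9 of 13 Lyn-high tumours lie above the highest Lyn-low tumour for Tnfsf13b and Tnfsf14.

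Both partners of the B cell survival pair BAFF and TACI were called. Tnfsf13b was at 2.03 to 21.8 CPM in Lyn-high tumours (median 11), against 1.32 to 8.17 CPM in Lyn-low tumours (median 3.13), and 9 of 13 Lyn-high tumours exceeded every Lyn-low tumour (log2 fold change 1.73 ± 0.35, adjusted p = 0.00191). Tnfrsf13b was at 1.38 to 19.7 CPM in Lyn-high tumours (median 5.98), against 1.14 to 4.55 CPM in Lyn-low tumours (median 1.77), with 8 of 13 above the highest Lyn-low tumour (1.59 ± 0.34, adjusted p = 0.00263). Neither Tnfsf13 nor Tnfrsf13c was called.

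Ligands and receptors of the lymphotoxin branch were also higher. Ltb was at 2.58 to 57.2 CPM in Lyn-high tumours (median 10.2), against 0.597 to 8.92 CPM in Lyn-low tumours (median 1.52; log2 fold change 2.67 ± 0.53, adjusted p = 0.00131). The Lyn-low median was exceeded by all 13 Lyn-high tumours and its highest tumour by 8. Tnfsf14 was at 0.106 to 3.88 CPM in Lyn-high tumours (median 1.46), against 0.0524 to 0.909 CPM in Lyn-low tumours (median 0.414), with 9 of 13 above the highest Lyn-low tumour (1.91 ± 0.45, adjusted p = 0.00689). Its receptor Tnfrsf14 was at 0.636 to 15.3 CPM in Lyn-high tumours (median 5.41), against 0.377 to 6.98 CPM in Lyn-low tumours (median 1.62; 1.58 ± 0.45, adjusted p = 0.0289). Tnfrsf1b passed the adjusted p but not the fold threshold (0.97 ± 0.28, adjusted p = 0.0304), and Tnf was not called (0.92, adjusted p = 0.271).

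The costimulatory receptors called were Tnfrsf4, Cd27 and Cd40. Tnfrsf4 was at 0.689 to 45.5 CPM in Lyn-high tumours (median 2.13), against 0.28 to 2.33 CPM in Lyn-low tumours (median 0.935; log2 fold change 3.45 ± 0.68, adjusted p = 0.00137). Cd27, a receptor of T cells and memory B cells, was at 0.124 to 5.41 CPM in Lyn-high tumours (median 0.8), against 0.149 to 0.714 CPM in Lyn-low tumours (median 0.25; 2.05 ± 0.48, adjusted p = 0.00615). Cd40 was at 1.84 to 90.1 CPM in Lyn-high tumours (median 12.1), against 1.24 to 16.8 CPM in Lyn-low tumours (median 4.24; 1.93 ± 0.50, adjusted p = 0.0143). The number of Lyn-high tumours above the highest Lyn-low tumour was 6 for Tnfrsf4, 8 for Cd27 and 4 for Cd40. None of the 4 tested costimulatory ligands was called.

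Among receptors listed in the epithelial and tissue branch, Relt was at 2.51 to 103 CPM in Lyn-high tumours (median 11.2), against 1.98 to 12 CPM in Lyn-low tumours (median 5.15; log2 fold change 2.31 ± 0.49, adjusted p = 0.00271), with 6 of 13 above the highest Lyn-low tumour. Tnfrsf11b was at 14.4 to 541 CPM in Lyn-high tumours (median 88.5), against 12.2 to 136 CPM in Lyn-low tumours (median 35.2; 1.78 ± 0.50, adjusted p = 0.0246). The third, Ngfr, was at 0.129 to 180 CPM in Lyn-high tumours (median 0.955), against 0.0291 to 4.79 CPM in Lyn-low tumours (median 0.617). Its log2 fold change of 3.65 ± 1.13 (adjusted p = 0.0438) rested on Lynwt/wt 59, and without that tumour it was 0.00 (adjusted p = 0.998). Fas (1.56, adjusted p = 0.0596), Tnfrsf8 (2.08, adjusted p = 0.0766) and Tnfrsf11a (1.07, adjusted p = 0.0514), which were higher in PCA group 3/4, were not called here, and no test compared the contrasts with each other, since they share tumours.

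**Figure D4:**
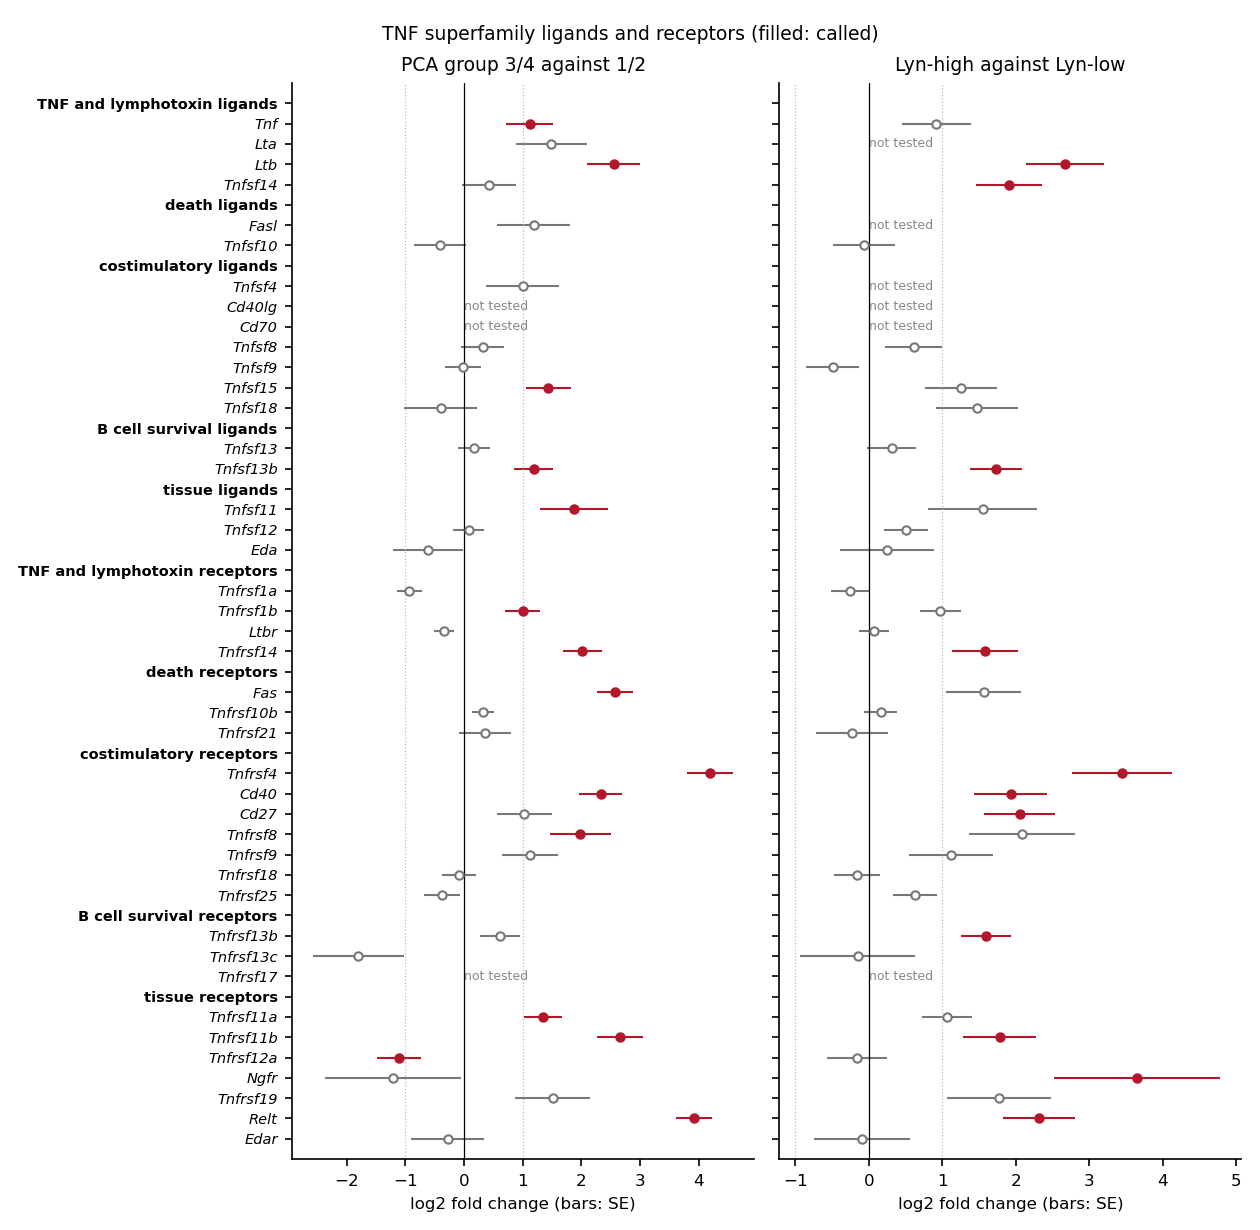
Log2 fold change of every TNF superfamily gene, grouped by role, for PCA group 3/4 against PCA group 1/2 (left) and Lyn-high against Lyn-low (right); bars are standard errors, filled points were called, and genes that did not pass the low-count filter are marked as not tested. On the left 14 filled points lie above 0 and Tnfrsf12a below it, and on the right all 11 lie above 0.

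In the signalling list 10 of 46 tested genes were called higher and 0 lower in Lyn-high tumours, and 7 of the 10 were feedback and induced genes. The shares over all genes, for this list and the marker lists below, were 5.49% higher and 0.508% lower. Those with the smallest p-values were Tnfaip3, which encodes the NF-kB brake A20 (log2 fold change 2.06, adjusted p = 0.00132), the adhesion molecule Vcam1 (2.31, adjusted p = 0.00235), Tnfaip2 (2.48, adjusted p = 0.00335), Tnip1 (1.93, adjusted p = 0.00675), Icam1 (2.55, adjusted p = 0.00853) and Relb (1.53, adjusted p = 0.0169). Markers of T cells, B cells, macrophages and dendritic cells moved with the Lyn label over nearly whole lists. Plasma cell markers (3 of 5 called higher) and NK and cytotoxic cell markers (2 of 4 tested) did so in part. Summed plasma cell markers had medians of 123 CPM in Lyn-high tumours and 263 CPM in Lyn-low tumours. All 7 T cell markers (summed levels 2.76 to 162 CPM in Lyn-high tumours, against 2.17 to 9.51 CPM in Lyn-low tumours) and all 5 tested B cell markers (3.88 to 82.5 CPM in Lyn-high tumours, against 1.03 to 5.26 CPM in Lyn-low tumours) were called higher. So were 7 of 8 macrophage markers (958 to 8750 CPM in Lyn-high tumours, against 394 to 1820 CPM in Lyn-low tumours) and 6 of 6 dendritic cell markers (19 to 353 CPM in Lyn-high tumours, against 13.3 to 82.8 CPM in Lyn-low tumours). Luminal markers were not (0 of 7, summed medians 3890 CPM in Lyn-high tumours and 3950 CPM in Lyn-low tumours). The part of these cells in the TNF superfamily differences was not tested.

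The calls of the Lyn contrast also depended on which tumours were compared. With the ID prefix as a covariate 4 genes were called: Ltb (2.19, adjusted p = 0.0408), Tnfsf13b (1.5, adjusted p = 0.0279), Tnfrsf13b (1.63, adjusted p = 0.0223) and Ngfr (3.40, adjusted p = 0.0175). Within prefix 20 only Tnfrsf13b was called (2.37, adjusted p = 0.0355), and within prefix 21 none was. In prefix 21 the log2 fold changes of Tnfrsf4 (0.57), Relt (0.15) and Tnfrsf11b (−0.39) were far from those in prefix 20 (4.62, 2.71 and 2.97), and all of the tumours of prefix 21 in this contrast belonged to PCA group 1/2. Leaving out Lynflox/wt 25 alone reduced the 11 called genes to 7, the same number as without the tumours that had lymphoid tissue in the section.

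Because the groupings overlap, each was also examined among tumours that share a label in the other. A shared label does not make Lyn RNA equal. Among Lyn-high tumours Lyn was at 62 to 181 CPM in PCA group 3/4, against 50.3 to 90.8 CPM in PCA group 1/2. Its log2 fold change was 0.57 ± 0.26 (edgeR p = 0.0422, adjusted p = 0.267). Among the 13 Lyn-high tumours, 6 of PCA group 3/4 were compared with 7 of PCA group 1/2. Of 38 tested genes 3 were called higher and 0 lower, while 1.33% of all 18226 genes were called higher and 0.774% lower. At an unadjusted p under 0.05 the counts were 10 higher and 3 lower, and 17.3% of all genes passed that p in either direction. Relt was at 18.6 to 103 CPM in PCA group 3/4 (median 37.6), against 2.51 to 11.2 CPM in PCA group 1/2 (median 7.63), without overlap (log2 fold change 2.78 ± 0.44, adjusted p = 0.00675). Tnfrsf4 was at 1.56 to 45.5 CPM in PCA group 3/4 (median 17.6), against 0.689 to 3.87 CPM in PCA group 1/2 (median 1.41; 3.71 ± 0.70, adjusted p = 0.0155). Fas was at 7.64 to 77.8 CPM in PCA group 3/4 (median 35.4), against 0.883 to 8.41 CPM in PCA group 1/2 (median 6.54; 2.69 ± 0.58, adjusted p = 0.0284). The values of Tnfrsf4 and Fas overlapped between the groups in part. In the same tumours 13 of 47 signalling genes were called higher, led by Nfkb2 (2.33, adjusted p = 0.00179), Birc2 (2.68, adjusted p = 0.00322) and Nfkbia (2.15, adjusted p = 0.00423), beside 1 of 6 dendritic cell and 2 of 5 lymph node stroma markers. The lymph node stroma markers called were Cr2 and Madcam1. Those tested but not called were negative: Ccl21a (−3.74), Fcer2a (−0.42) and Cxcl13 (−0.34, edgeR adjusted p = 0.32, 0.886 and 0.92). None of the 8 macrophage, 7 T cell and 6 B cell markers was called, although all 8 macrophage markers were positive, with a median log2 fold change of 0.87 and summed levels of 2340 to 8750 CPM in PCA group 3/4, against 958 to 3490 CPM in PCA group 1/2. The list of thymic and keratinising epithelium was at 201 to 3380 CPM in PCA group 3/4, against 7.52 to 24.3 CPM in PCA group 1/2. Of its genes Spib and Aire were called (log2 fold changes 7.86 and 5.3), whereas Lor, Krt10 and Krt1 were not (0.64, 0.28 and −1.77). With the prefix as a covariate, or within prefix 20, none of the 3 genes was called. Over all 21 alternative fits their log2 fold changes were 2.46 to 3.01 for Relt, 3.33 to 4.07 for Tnfrsf4 and 2.24 to 2.91 for Fas.

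Within PCA group 1/2, 7 Lyn-high tumours were compared with 13 Lyn-low tumours. Here 3 of 38 tested genes were called higher and 0 lower, against 1.49% and 0.0159% of all 18863 genes. The 38 had a median log2 fold change of 0.52, 33 of them were positive, and 11 were higher and 0 lower at an unadjusted p under 0.05. Of all genes, 50.2% were positive and 12.3% passed that p in either direction. Fasl was at 0.102 to 1.42 CPM in Lyn-high tumours (median 0.298), against 0 to 0.298 CPM in Lyn-low tumours (median 0.0524; log2 fold change 2.78 ± 0.70, adjusted p = 0.0445). Tnfsf14 was at 0.106 to 3.88 CPM in Lyn-high tumours (median 1.53), against 0.0524 to 0.909 CPM in Lyn-low tumours (median 0.414; 1.94 ± 0.49, adjusted p = 0.0472). The third gene was Ngfr (4.51 ± 1.14, adjusted p = 0.0459), again with the single value of 180 CPM. Relt (0.39, adjusted p = 0.739) and Tnfrsf4 (0.71, adjusted p = 0.567) were not called, nor were Ltb (1.93, adjusted p = 0.0757) and Tnfrsf13b (1.54, adjusted p = 0.0625). T cell markers were called higher for 5 of 7, B cell markers for 5 of 5 and macrophage markers for 5 of 8, and no signalling gene was called. All 3 calls were lost without the low-count filter, with the prefix as a covariate and within each prefix.

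The genotype comparisons rest on groups set before the tumours were profiled. Of 39 tested genes 0 were called between Lynflox/flox and Lynwt/wt tumours, and 0 between Lynflox/wt and Lynwt/wt tumours, where 0.0316% and 0.0158% of all 18998 genes were called. DESeq2 called 0 as well. At an unadjusted p under 0.05, 1 gene was higher and 2 lower in Lynflox/flox, and 4 were higher and 3 lower in Lynflox/wt. Over all genes, 11.5% for Lynflox/flox and 11.2% for Lynflox/wt passed that p in either direction. No member of the signalling list or of the immune marker lists was called in either.

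The member with the smallest p for Lynflox/flox was Tnfsf10, the TRAIL gene. It was at 8.84 to 85.8 CPM in Lynflox/flox tumours (median 31), 4.65 to 65.2 CPM in Lynflox/wt tumours (median 17.1) and 1.32 to 42.2 CPM in Lynwt/wt tumours (median 7.65). All 13 Lynflox/flox tumours lay above the Lynwt/wt median, but the log2 fold change of 1.43 ± 0.44 did not survive adjustment (p = 0.0024, adjusted p = 0.186 in edgeR). Ngfr followed, at −3.37 ± 1.14 in Lynflox/flox (adjusted p = 0.226) and −2.91 ± 1.08 in Lynflox/wt (adjusted p = 0.302), with the Lynwt/wt group holding the tumour at 180 CPM. In Lynflox/wt the largest positive differences at an unadjusted p under 0.05 were Ltb (1.87 ± 0.68, adjusted p = 0.293) and Tnfrsf9 (1.54 ± 0.54, adjusted p = 0.274). Of the genes that led the PCA contrast, Relt was at 0.67 ± 0.82 and Tnfrsf4 at 0.73 ± 0.91 for Lynflox/flox against Lynwt/wt, errors that leave room for differences of more than 2-fold in either gene.

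Finally, ligands were set against their receptors across tumours, separately in the PCA groups because these form distinct clusters. For 21 pairs in which both genes passed the low-count filter, Pearson's r and Spearman's rho were computed on log2 CPM in each group, 42 relations in all, with p-values from 100000 permutations (two-sided) adjusted over the 42. In the 10 PCA group 3/4 tumours no pair passed, and 1 did before adjustment, BAFF and TACI (Tnfsf13b and Tnfrsf13b, rho = 0.818, permutation p = 0.00574, adjusted p = 0.0804). In the 29 PCA group 1/2 tumours 16 of 21 pairs had a positive rho and 5 passed before adjustment, but the 2 that passed after it were both negative.

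The stronger of these was Tnf and its receptor Tnfrsf1a, with r = −0.704 (permutation p = 2e-05, adjusted p = 0.00084) and rho = −0.576 (permutation p = 0.00133, adjusted p = 0.0279) in PCA group 1/2. Tumours of that group with little Tnf tended to have much Tnfrsf1a. Without the 2 tumours farthest from the median of Tnf, r was −0.671 (permutation p = 0.00011, adjusted p = 0.00462) and rho −0.518, which did not pass after adjustment (permutation test, adjusted p = 0.185). Within prefix 20 r was −0.435 (11 tumours, permutation p = 0.183) and within prefix 21 −0.769 (18 tumours, permutation p = 0.00011, adjusted p = 0.00231). In PCA group 3/4 the values were −0.243 for r and −0.394 for rho, with permutation p = 0.389 and 0.261.

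The second pair was Tnfsf10 and Tnfrsf10b, TRAIL and its only death receptor in the mouse, with r = −0.625 (permutation p = 0.00044, adjusted p = 0.00924) and rho = −0.581 (permutation p = 0.00112, adjusted p = 0.0279) in PCA group 1/2. Without the 2 tumours farthest from the median of Tnfsf10, r dropped to −0.395 (permutation p = 0.0392, adjusted p = 0.331) and rho was −0.496 (adjusted p = 0.185). Neither passed after adjustment, so the relation rests in part on those tumours. Within prefix 20 r was −0.414 (permutation p = 0.21) and within prefix 21 −0.744 (permutation p = 0.00052, adjusted p = 0.00546). Both genes of a pair come from the same libraries, and whether the mix of cell types moves them was not tested.

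**Figure D5:**
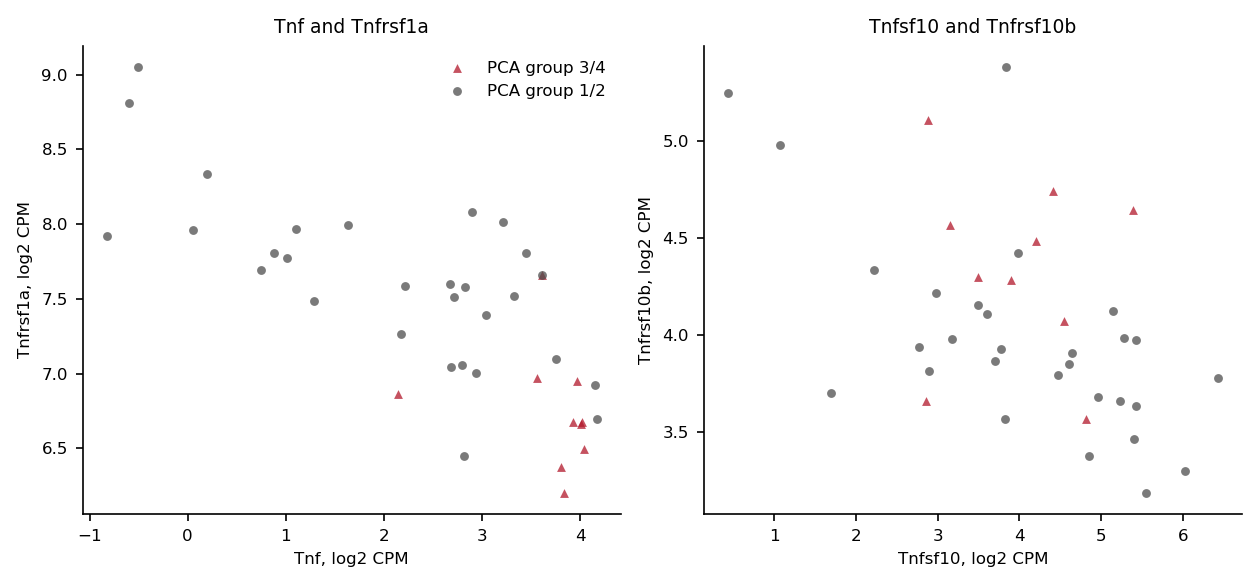
Log2 CPM of a ligand (horizontal) and its receptor (vertical) for Tnf and Tnfrsf1a (left) and Tnfsf10 and Tnfrsf10b (right); red triangles are the 10 PCA group 3/4 tumours and grey circles the 29 PCA group 1/2 tumours. In PCA group 1/2 both pairs slope downward (r = −0.704 and −0.625), and 9 of 10 PCA group 3/4 tumours lie below the PCA group 1/2 median of Tnfrsf1a.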

How the data were processed

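RNA was taken from pieces of 39 tumours, 1 library each (stranded, poly(A)-selected, read as pairs of 100 bases). Per the paper and the submitters' processing notes, the authors aligned reads with STAR 2.5.1b to GRCm38 and counted them per gene with featureCounts 1.5.1 on Gencode vM17. The deposited values used here are these raw counts. Among counts of 1 to 10, 79.8% were even, which is what counting each mate of a pair would give, so a count may not be a read pair. Authors' normalised values and columns of fold changes and p-values in the deposited tables were not used. 0 columns of values lacked a sample.

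Groups were taken from the labels. Counts were fitted in edgeR 4.0.16 (filterByExpr, TMM, robust quasi-likelihood F test, R 4.3.3) over all genes, with Benjamini-Hochberg adjustment over all genes tested. Calls needed both an adjusted p under 0.05 and a 2-fold difference in either direction. Levels are TMM-normalised CPM. The 3 genotypes share 1 fit. Several tumours share a mouse, and the p-values treat tumours as separate. The consensus correlation of tumours of 1 mouse was 0.0353 for the PCA contrast and 0.0689 for the Lyn contrast. Alternatives used DESeq2 1.42.0 and limma 3.58.1. Correlations and figures used Python 3.11.15 with scipy 1.17.1 and matplotlib 3.10.9. log2 CPM for correlations used a prior count of 2. Positions are those of Gencode vM21 (GRCm38).

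The members and gene lists were chosen with earlier results of these data known. Every member is accounted for, those called anywhere are given with values, and of the signalling list up to 6 called genes with the smallest p per comparison are named. Promoter windows came from RefSeq (GRCm38.p6), with no window for 8 members. A looser form of the NF-kB pattern was searched first and matched 22.9% of all genes and 32.4% of members, so the standard consensus was used. The fits were tested on simulated data before use, at an adjusted p under 0.05. Of 100 simulated 2-fold changes they recovered 35 in the PCA contrast, 40 in the Lyn contrast and 37 for Lynflox/flox against Lynwt/wt. For 100 simulated 4-fold changes the numbers were 80, 75 and 77, so in that setting many 2-fold differences would be missed. Only a small part of the genes was changed there, whereas 34.2% of all genes had an unadjusted edgeR p under 0.05 in the PCA contrast. The fold threshold was not applied either, so these rates need not hold for the calls.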

Additional observations from a re-analysis of the deposited data

Results flagged for a closer look

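In groups of 4 to 10 tumours, 117 combinations of gene and group were examined for a single tumour far from the rest by Dixon's test, and 6 showed one. Chance gives about 1 in 20, so this number is within what chance gives. Tnf was lowest of the 10 PCA group 3/4 tumours in Lynflox/wt 09, at 4.38 CPM with the next tumour at 11.8. Tnfrsf1a was highest of these 10 in Lynwt/wt 03, at 203 CPM with the next at 125, and this tumour also had the most Lyn of all (181 CPM). Edar, the ectodysplasin receptor, was lowest of the 6 Lyn-high PCA group 3/4 tumours in Lynflox/wt 08, at 0.214 CPM with the next at 3.22. Among the 7 Lyn-high PCA group 1/2 tumours, Lynwt/wt 41 had the lowest Fas, at 0.883 CPM with the next at 5.77, and the lowest Tnfrsf8, at 0.053 CPM with the next at 0.34. Ngfr was highest of those 7 in Lynwt/wt 59, at 180 CPM with the next at 3.88.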

How the results depend on the processing

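The number of members called higher in PCA group 3/4, 14 in all tumours, was 4 with the mouse as a fixed block (3 of the 14 and Tnfrsf19), 8 within prefix 20 and 9 within prefix 21. Other settings gave 10 to 16 members, and leaving out single PCA group 3/4 tumours gave 11 to 15. The 1 gene called lower became 2 under DESeq2 and with the prefix as a covariate, 0 within prefix 20 and with the mouse as a fixed block, and 0 to 2 without single tumours. The number called higher in Lyn-high tumours, 11 in all, was 4 with the prefix as a covariate, 1 within prefix 20, 0 within prefix 21, 7 under voom with the mouse as a random block, 7 without the tumours that had lymphoid tissue in the section and 7 to 13 without single tumours. Among Lyn-high tumours the count of 3 became 6 under DESeq2, 0 with the prefix as a covariate or within prefix 20, and 2 to 3 without single tumours. Within PCA group 1/2 the count of 3 became 6 under DESeq2, 1 with the stricter filter, with counts summed per mouse or without tumours with lymphoid tissue, and 0 with no filter, with voom, with the prefix as a covariate or within either prefix. By adjusted p of rho, 2 pairs passed in PCA group 1/2, and 0 without the 2 tumours farthest from the ligand's median or within either prefix. By adjusted p of r, Tnf and Tnfrsf1a still passed without those 2 tumours, and both pairs passed within prefix 21. Reversals were Tnfsf11 (−0.19, PCA contrast in prefix 21), Tnfrsf11b (−0.39, Lyn contrast in prefix 21) and Ngfr (0.00 without Lynwt/wt 59 in the Lyn contrast, 0.00 to 3.76 without single tumours), and the cause was not tested. Genotype counts stayed at 0 in all 10 settings tried. Among Lyn-high tumours voom could not be fitted, and prefix 21 held no PCA group 3/4 tumour. The only paired fit was the one with the mouse as a fixed block, since replicate numbers name single tumours and are not shared between groups. Fewer tumours are compared within a prefix. Genes under 1 CPM rest on few counts.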
